A study of Mus musculus with 6 samples.

Results

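Native cardiac fibroblasts (CFs) were profiled for 10 heat shock chaperone genes, taken from the count table by their symbols: *Hspa1a*, *Hspa1b*, *Hspa8*, *Hsph1*, *Dnajb1*, *Hsp90aa1*, *Hspb1*, *Bag3*, *Hspe1* and *Hspd1*. All 10 were among the 49548 genes of the table, and all 10 passed the filter, which asked for 10 counts or more in 2 or more libraries. The HSP70 proteins hold unfolded protein chains and release them in a cycle driven by ATP. J proteins such as the product of *Dnajb1* bring clients and stimulate the ATPase, whereas *Hsph1* (HSP110) and *Bag3* encode nucleotide exchange factors that reopen it. HSP90 finishes the folding of kinases and hormone receptors, the small heat shock protein of *Hspb1* keeps damaged proteins soluble, and the products of *Hspd1* (HSP60) and *Hspe1* (HSP10) form the folding chamber of mitochondria. Under heat or proteotoxic stress the transcription factor HSF1 binds heat shock elements in the promoters of many of these genes, and tissue dissociation is itself a known trigger of the same genes in freshly isolated cells.

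The mRNA came from CFs of C57BL/6J mice aged 5 weeks, with 3 WT and 3 CharmeKO libraries. CharmeKO mice carry a polyA signal inserted in the locus of *Charme*, a long non-coding RNA of heart and skeletal muscle, carried by the whole animal and not by a chosen cell type. Native CFs are the cells left after enzymatic dissociation of the heart, lysis of red blood cells and magnetic depletion of hematopoietic cells, although a culture medium is also listed in the labels. No fibroblast was sorted positively, and both groups went through the same dissociation. The question asked of the data was how the stroma of CharmeKO hearts differs from WT in its transcriptome.

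Promoter stretches of some of the genes are shown because heat shock elements are the sequence through which HSF1 acts. Of the genes shown, *Hspa1a* and *Hspa1b* passed the threshold in the comparison below, and *Hspe1*, *Hsph1* and *Hspb1* did not. RefSeq promoter windows on GRCm38.p6, from 250 bases before to 50 bases after each start site, were given for 8 of the 10 genes, all but *Hspa8* and *Hsp90aa1*. An element was searched on both strands in a loose form of 2 facing units, GAANNTTC or TTCNNGAA, and in a strict form in which one further unit of GAA or TTC follows after NN, so that each strict match also contains loose ones. The loose form stood in 4946 of 32851 promoter windows of all genes (15.1%) and the strict form in 198 (0.603%). Among the 8 chaperone genes, 7 held the loose form and 3, *Hspe1*, *Hspd1* and *Hsph1*, held the strict one. A gene was counted if any of its windows held the form, whereas the shares over all genes are per window. *Dnajb1* held neither in its windows. The stretches below end at or before the start site, run 5′ to 3′ on the strand of the gene, and carry the matched elements in capitals.

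*Hspa1a*, chr17:34972157-34972306, minus strand, positions −150 to −1 from the start site: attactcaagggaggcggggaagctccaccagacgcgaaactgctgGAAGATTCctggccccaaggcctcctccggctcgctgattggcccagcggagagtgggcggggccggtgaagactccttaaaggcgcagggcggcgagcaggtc
*Hspa1b*, chr17:34959239-34959388, minus strand, positions −150 to −1 from the start site: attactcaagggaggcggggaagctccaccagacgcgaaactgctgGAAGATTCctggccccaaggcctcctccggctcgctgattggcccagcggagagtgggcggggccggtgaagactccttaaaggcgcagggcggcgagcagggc
*Hspe1*, chr1:55088038-55088097, plus strand, positions −110 to −51: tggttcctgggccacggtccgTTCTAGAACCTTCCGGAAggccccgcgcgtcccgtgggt
*Hsph1*, chr5:149636337-149636396, minus strand, positions −60 to −1: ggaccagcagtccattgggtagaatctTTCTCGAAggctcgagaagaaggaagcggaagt
*Hspb1*, chr5:135887789-135887848, plus strand, positions −130 to −71: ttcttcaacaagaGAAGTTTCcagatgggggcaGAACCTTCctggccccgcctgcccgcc

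The windows of *Hspa1a* and *Hspa1b* were almost the same DNA, with 4 of 300 bases different, 1 of them inside the stretches shown, and both had their loose element at position −104. *Hspe1* had a run of 4 alternating units, read as strict matches at positions −89 and −84. *Hspd1* lies head to head with *Hspe1*, and one of its RefSeq windows overlapped that of *Hspe1* by 285 bases, so that its strict matches at positions −144 and −139 are the same DNA read on the other strand. *Hspb1* had loose elements at positions −117 and −97. *Hsph1* had a loose element at position −33 before its start and the strict form after it, at position 37, and in *Bag3* the only match, at position 43, also lay after the start. A match describes letters in the window, and binding of HSF1 was not measured.

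**Figure D1:**
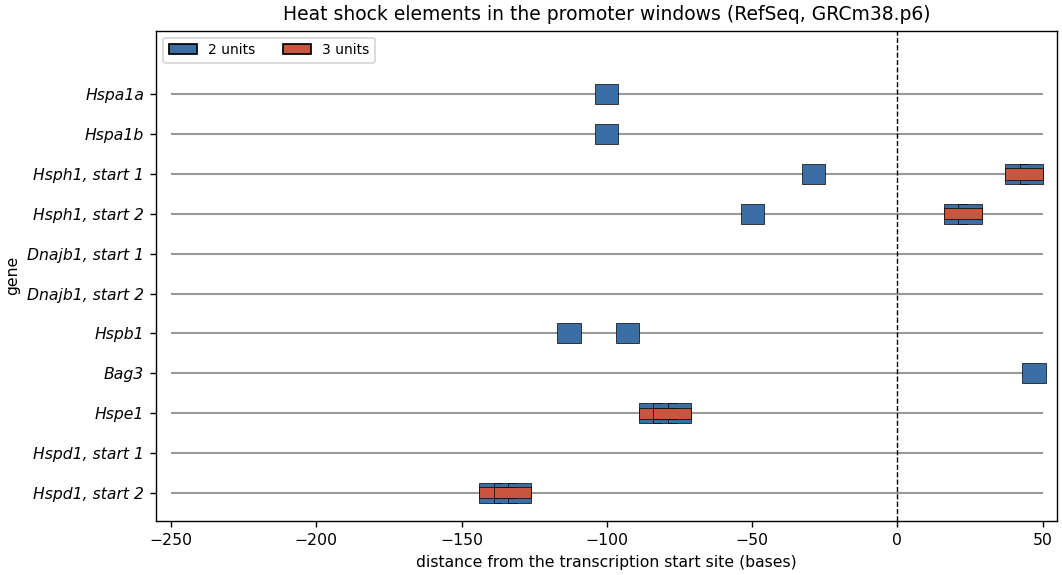
Positions of heat shock elements, in bases from the transcription start site (dashed line), in the promoter windows of 8 chaperone genes, with 1 line for each RefSeq start. Blue boxes are matches of 2 units and red boxes matches of 3 units. *Hspa1a* and *Hspa1b* share a match at −104, whereas the matches of 3 units are in *Hspe1*, *Hsph1* and one window of *Hspd1*.

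The libraries held between 9595701 counts (WT replicate 3) and 42101393 counts (WT replicate 1), and the total counts of the CharmeKO libraries were between 23550718 and 31048606. *Charme* itself had 26, 15 and 4 counts in WT and, by replicate number, 7, 0 and 0 counts in CharmeKO, a difference of −0.437 CPM (counts scaled to the library total; two-sided exact permutation p = 0.1, as low as 3 libraries against 3 can go). Counts of 0 leave room for up to 3 counts, or 0.127 CPM in CharmeKO replicate 2 and 0.0966 CPM in replicate 3. *Xist* was above 100 CPM in WT replicate 1 and CharmeKO replicates 1 and 2 and at most 2.55 CPM in the other libraries. The summed level of 4 Y-linked genes was 113 and 95.3 CPM in WT replicates 2 and 3, 95.9 CPM in CharmeKO replicate 3 and 0 in WT replicate 1 and CharmeKO replicate 2, but 4.75 CPM in CharmeKO replicate 1. This library thus held both *Xist* and Y-linked transcripts. At low *Xist*, so did WT replicate 2 (2.55 CPM of *Xist*) and CharmeKO replicate 3 (0.296 CPM). CharmeKO replicate 1 was also the only CharmeKO library with *Charme* counts. What it holds was not tested, and the calls of the pair are given without it below. The split by *Xist* crosses the genotypes unevenly, and values on each side of it are given below. The fibroblast markers *Dcn*, *Pdgfra*, *Tcf21*, *Col1a1*, *Lum*, *Dpt* and *Gsn* were present in all libraries, at a summed level of 26983 to 34550 CPM in WT and 27549 to 31384 CPM in CharmeKO. Most of this sum was *Gsn*, at 17340 to 26456 CPM in WT and 20095 to 22393 CPM in CharmeKO. The 7 endothelial markers also summed to 7015 to 8401 CPM in WT and 7456 to 9475 CPM in CharmeKO, which makes the samples a mixed stroma. The sums do not give the shares of these cell types.

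Of the 10 genes, the inducible HSP70 pair *Hspa1a* and *Hspa1b* rose in CharmeKO, and no other member passed the threshold in either direction. For both genes the groups lay apart, and the rise was 2.46-fold for *Hspa1a* and 3.00-fold for *Hspa1b*. The test was edgeR's quasi-likelihood test with a Benjamini-Hochberg adjusted p under 0.05 over all 15789 genes tested, and values per library are CPM normalized by the TMM method. These 2 of 10 genes stand beside a background of 0.418% of all tested genes called higher in CharmeKO and 0.830% called in either direction. By DESeq2, 3 of 10 members were called higher, beside 0.975% of tested genes. The log2 fold change of 9 of the 10 members was above 0, beside 51.2% of all tested genes. The median of the 10 members was 0.42, against a median of 0.0096 over all tested genes. In 4 of 10 members, *Hspa1a*, *Hspa1b*, *Hspa8* and *Hsp90aa1*, every CharmeKO library was above every WT library, which held for 9.57% of tested genes. An unadjusted p under 0.05 was reached by 6 of 10 members and by 12.8% of tested genes. In bulk RNA a larger share of one cell type and more RNA per cell cannot be told apart.

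**Figure D2:**
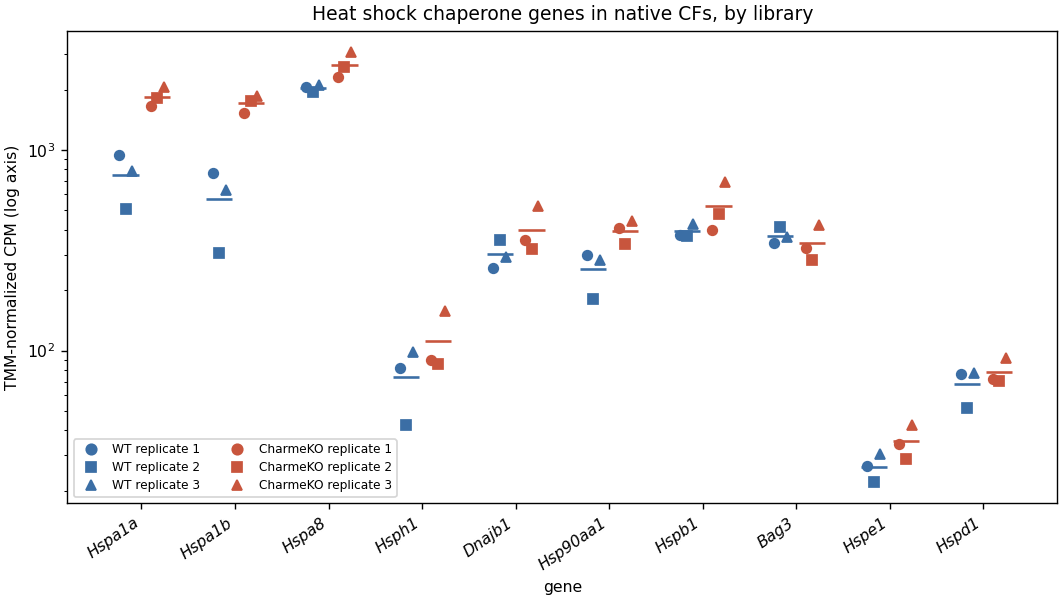
Normalized CPM (log axis) of the 10 heat shock chaperone genes in each library, blue for WT and red for CharmeKO, with circles, squares and triangles for replicates 1, 2 and 3 and a bar at each group's mean. The CharmeKO points of *Hspa1a* and *Hspa1b* sit clear above the WT points, while CharmeKO replicate 3 is the highest library for all 10 genes.

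*Hspa1a*, which encodes a stress-inducible HSP70, was at 943, 509 and 789.7 CPM in WT and at 1654, 1809.7 and 2054 CPM in CharmeKO, in the order of replicates 1, 2 and 3 used for all values that follow. The lowest CharmeKO library was thus well above the highest WT library, and WT replicate 2 was the lowest of all. The mean ± SD of 3 libraries was 747 ± 220.4 CPM in WT and 1839 ± 202 CPM in CharmeKO. The log2 fold change was 1.30 with a standard error of 0.21 and a 95% confidence interval from 0.85 to 1.75 (edgeR, adjusted p = 0.0116).

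*Hspa1b*, the neighbouring gene for a nearly identical HSP70, was at 772, 307 and 633 CPM in WT and at 1531, 1759.8 and 1849.6 CPM in CharmeKO. It followed the same order of libraries as *Hspa1a*, with a wider gap between the groups. The log2 fold change was 1.59 with a standard error of 0.27 and a 95% confidence interval from 1.00 to 2.18 (edgeR, adjusted p = 0.0176). The edgeR call did not hold without every library. Without WT replicate 3 the adjusted p was 0.0545 for *Hspa1a* and 0.0628 for *Hspa1b*, and without CharmeKO replicate 2 it was 0.0618 and 0.0922. Without CharmeKO replicate 1 the log2 fold changes were 1.37 and 1.66, with an adjusted p of 0.0492 for *Hspa1a* and 0.076 for *Hspa1b*. For *Hspa1b* the call was also lost without CharmeKO replicate 3 (adjusted p = 0.0568), while the log2 fold changes stayed between 1.08 and 1.5 for *Hspa1a* and between 1.28 and 1.87 for *Hspa1b* over the 6 fits that leave out 1 library.

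Since the groups of the pair did not overlap, its direction on each side of the split by *Xist* was already set, and only the sizes are given, with 1 library in an arm on each side. Among the libraries high in *Xist*, *Hspa1a* was 1.84-fold and *Hspa1b* 2.13-fold higher in the mean of 2 CharmeKO libraries than in 1 WT library. Among those low in *Xist*, *Hspa1a* was 3.16-fold and *Hspa1b* 3.94-fold higher in 1 CharmeKO library than in the mean of 2 WT libraries. With a term for the split, the log2 fold changes were 1.27 and 1.54 (edgeR, adjusted p = 0.0199 and 0.0292). Over all members, 8 of 10 genes were higher in CharmeKO on the high side, the exceptions being *Bag3* and *Hspd1*. The direction was likewise set for *Hspa8* and *Hsp90aa1*, whose groups did not overlap. On the low side 10 of 10 were higher. This was also set, since the only CharmeKO library there, replicate 3, was the highest library for all 10 genes. These counts were not compared with those over all tested genes.

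Reads that match several genes are left out of counts made by STAR, and this limits how the pair can be separated. The coding parts of *Hspa1a* and *Hspa1b* were 98.2% identical, with 34 of 1923 bases different, and 48.6% of the 100-base windows of the *Hspa1a* transcript and 49.9% of those of *Hspa1b* occurred in another gene, each other or *Hspa1l*. After the coding part, 0 of 714 windows of *Hspa1a* and 0 of 547 of *Hspa1b* were shared. The counts of the pair therefore come from part of each transcript and understate its level. Added up as 1 gene, the pair was at 1715, 815 and 1423 CPM in WT and at 3185, 3569 and 3904 CPM in CharmeKO. The sum was higher in each CharmeKO library than in any WT library, with a log2 fold change of 1.43 and a standard error of 0.23 (edgeR, adjusted p = 0.0137).

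The balance between the copies was also read within each library, where the scaling of the library drops out. The log2 ratio of *Hspa1a* to *Hspa1b* counts was 0.29, 0.73 and 0.32 in WT and 0.11, 0.04 and 0.15 in CharmeKO. *Hspa1a* had more counts than *Hspa1b* in every library, and the excess was smaller in each CharmeKO library than in any WT library. The difference in means, −0.35, came with an exact permutation p of 0.1 (two-sided), the smallest that 3 libraries against 3 allow, so the design cannot call it. Without WT replicate 2, which had the highest ratio and the lowest CPM of both genes, the difference was −0.20.

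*Hspa8* encodes HSC70, the HSP70 that cells make at all times, and it had the most counts of the 10 genes in each of the 6 libraries. It was at 2070.1, 1955 and 2107 CPM in WT and at 2309, 2593 and 3077 CPM in CharmeKO. The groups did not overlap, but the CharmeKO libraries spread over a far wider range than the WT libraries. The log2 fold change was 0.38 with a standard error of 0.14 (95% confidence interval 0.064 to 0.70; edgeR, unadjusted p = 0.0224, adjusted p = 0.301) and did not pass the threshold. Of the 100-base windows of *Hspa8*, 31.6% occurred in 6 other genes, and the 5 of these in the count table had together at most 0.593% of the counts of *Hspa8* in any library.

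The inducible pair was set against the constitutive gene in the same way. The log2 ratio of *Hspa1a* plus *Hspa1b* to *Hspa8* counts was −0.27, −1.26 and −0.57 in WT and 0.46, 0.46 and 0.34 in CharmeKO. The pair had fewer counts than *Hspa8* in every WT library and more in every CharmeKO library, and the CharmeKO ratios lay closer together, with an SD of 0.069 against 0.51 in WT (n = 3 each). A ratio of 0 marks equal raw counts and not equal RNA levels. The counts of 2 genes were added and not divided by gene length (2967 and 2803 bases against 4301 for *Hspa8*). Reads shared with other genes are also missing to unequal degrees. The difference of 1.12 on the log2 scale had an exact permutation p of 0.1 (two-sided), again the smallest possible. The pair made up 32.7%, 19.4% and 27.9% of the summed CPM of all 10 genes in WT and 44.4%, 45.9% and 41.7% in CharmeKO.

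**Figure D3:**
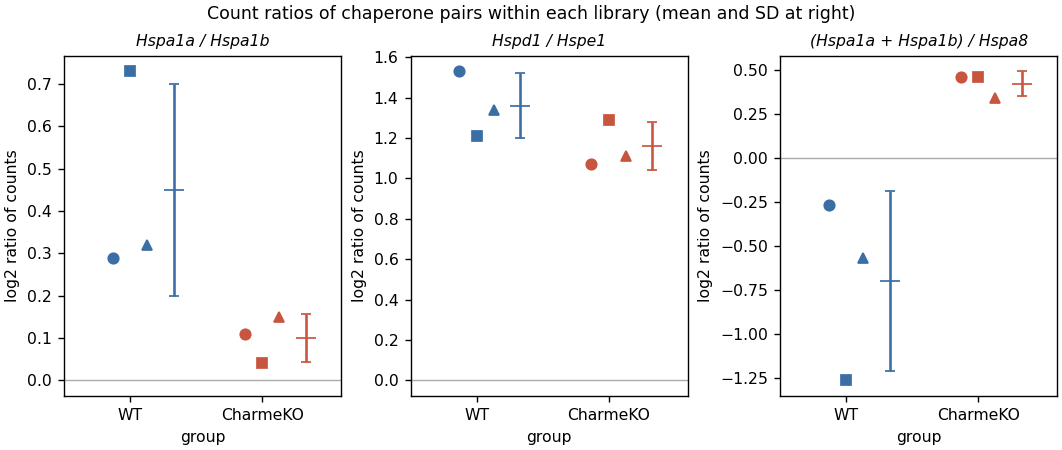
Log2 ratios of raw counts within each library for 3 pairs of chaperone genes, blue for WT and red for CharmeKO, with circles, squares and triangles for replicates 1, 2 and 3 and the mean ± SD to the right of each group. The ratio of *Hspa1a* plus *Hspa1b* to *Hspa8* is below 0 in all WT and above 0 in all CharmeKO libraries, while the ratios of *Hspd1* to *Hspe1* overlap. A ratio of 0 marks equal raw counts and not equal levels per kb.

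Divided by gene length, levels can be compared between genes. In WT the order of the mean levels was *Hspa8* at 475 ± 18.5 CPM per kb (SD, n = 3), *Hspb1* at 382 ± 28.4, *Hspa1a* at 252 ± 74.3, *Hspa1b* at 203.5 ± 85.2, *Bag3* at 146 ± 13.3, *Dnajb1* at 94.2 ± 15.5, *Hsp90aa1* at 64.7 ± 16.3, *Hspd1* at 25.8 ± 5.54, *Hspe1* at 17.9 ± 2.80 and *Hsph1* at 10.2 ± 3.96 CPM per kb. Neighbours overlapped in their library values from *Hspa1a* to *Hspa1b*, from *Hspa1b* to *Bag3* and from *Hspd1* to *Hspe1*, and were apart elsewhere. In CharmeKO the top of this order closed up, with *Hspa1a* at 619.8 ± 68.0, *Hspa8* at 618 ± 90.3, *Hspa1b* at 611 ± 58.5 and *Hspb1* at 510.1 ± 149 CPM per kb (SD, n = 3), and neighbours among these 4 overlapped. This order carries a limit, since reads shared between genes are missing from the counts to unequal degrees. Besides the pair, the share of 100-base windows found in another gene was 47.5% for *Hsp90aa1*, 42.7% for *Hspb1*, 31.6% for *Hspa8*, 26.9% for *Hspd1* and 0.347% for *Hspe1*, and 0 for *Bag3*, *Dnajb1* and *Hsph1*, so the levels of the former are understated against the latter. The gene lengths are from GENCODE release M21.

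The partners of HSP70 in its cycle gave no call. *Dnajb1*, the stress-inducible J protein gene, was at 257, 355 and 293 CPM in WT and at 358, 320.2 and 526 CPM in CharmeKO. The groups overlapped, since WT replicate 2 was above CharmeKO replicate 2, and the log2 fold change was 0.41 with a standard error of 0.19 (edgeR, adjusted p = 0.401). *Hsph1*, the HSP110 exchange factor gene, was at 81.8, 42.5 and 98.4 CPM in WT and at 89.5, 86.0 and 158 CPM in CharmeKO. Here 2 CharmeKO libraries sat inside the WT range and replicate 3 above it, with a log2 fold change of 0.59 and a standard error of 0.29 (edgeR, adjusted p = 0.426), which fell to 0.25 without CharmeKO replicate 3 and to 0.30 without WT replicate 2. *Bag3*, whose product links HSP70 to small heat shock proteins and to autophagy, was at 344, 411 and 369 CPM in WT and at 324, 283 and 421 CPM in CharmeKO. It was the only member with a negative log2 fold change, −0.13 with a 95% confidence interval from −0.47 to 0.22 (edgeR, adjusted p = 0.795), and its groups overlapped. No 100-base window of *Dnajb1*, *Hsph1* or *Bag3* occurred in another gene.

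*Hsp90aa1*, the inducible HSP90 gene, was at 299, 181 and 284 CPM in WT and at 409, 339.7 and 441 CPM in CharmeKO. The groups did not overlap, and WT replicate 2 was again the lowest library. The log2 fold change was 0.64 with a standard error of 0.19 and a 95% confidence interval from 0.23 to 1.05, and the call depended on the tool, with an adjusted p of 0.183 by edgeR and 0.0257 by DESeq2. Of its 100-base windows, 47.5% occurred in 3 other genes, whose own counts were at most 0.658% of those of *Hsp90aa1* in any library. *Hspb1*, the small heat shock protein gene, was at 379, 374 and 427 CPM in WT and at 399, 482 and 696 CPM in CharmeKO. Its WT libraries lay close together, and CharmeKO replicate 1 was inside the WT range while the other two were above it. The log2 fold change of 0.42 with a standard error of 0.18 (edgeR, unadjusted p = 0.0439, adjusted p = 0.377) fell to 0.16 without CharmeKO replicate 3.

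The mitochondrial folding chamber showed no call either. *Hspe1* was at 26.5, 22.2 and 30.4 CPM in WT and at 34.3, 28.7 and 42.6 CPM in CharmeKO, and *Hspd1* was at 76.5, 51.4 and 77.0 CPM in WT and at 72.2, 70.4 and 91.8 CPM in CharmeKO. Both sets of groups overlapped, and in *Hspd1* only CharmeKO replicate 3 was above the WT range. The log2 fold changes were 0.43 for *Hspe1* and 0.20 for *Hspd1*, with standard errors of 0.17 each (edgeR, adjusted p = 0.316 and 0.675). That of *Hspd1* was 0.025 without WT replicate 2 and 0.065 without CharmeKO replicate 3. The log2 ratio of *Hspd1* to *Hspe1* counts, 2 genes that share the promoter DNA shown above, was 1.53, 1.21 and 1.34 in WT and 1.07, 1.29 and 1.11 in CharmeKO. These ratios overlapped, and their difference of −0.20 had an exact permutation p of 0.2 (two-sided).

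The values of the 10 genes leaned on the same libraries. WT replicate 2 was the lowest library for 8 of the 10 genes, and CharmeKO replicate 3 was the highest for 10 of 10. Among the lists read below, the summed CPM of HSP90 and co-chaperones had the same extremes (2223 and 3148 CPM). So did the sums of the J proteins, the cytosolic chaperonin and prefoldin, and the chaperones of the endoplasmic reticulum, but not those of the other chaperone and immediate early lists. These orders were not compared with those over all tested genes. The summed CPM of the 8 genes other than the HSP70 pair was 3533, 3392 and 3685 in WT and 3995, 4203 and 5454 in CharmeKO, so each CharmeKO library was above the WT libraries and replicate 3 stood apart from the other two. Without CharmeKO replicate 3, the log2 fold change was 0.26 for *Hspa8*, 0.17 for *Dnajb1*, 0.56 for *Hsp90aa1* and 0.27 for *Hspe1*. The pair kept log2 fold changes of 1.21 and 1.53 without that library.

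**Figure D4:**
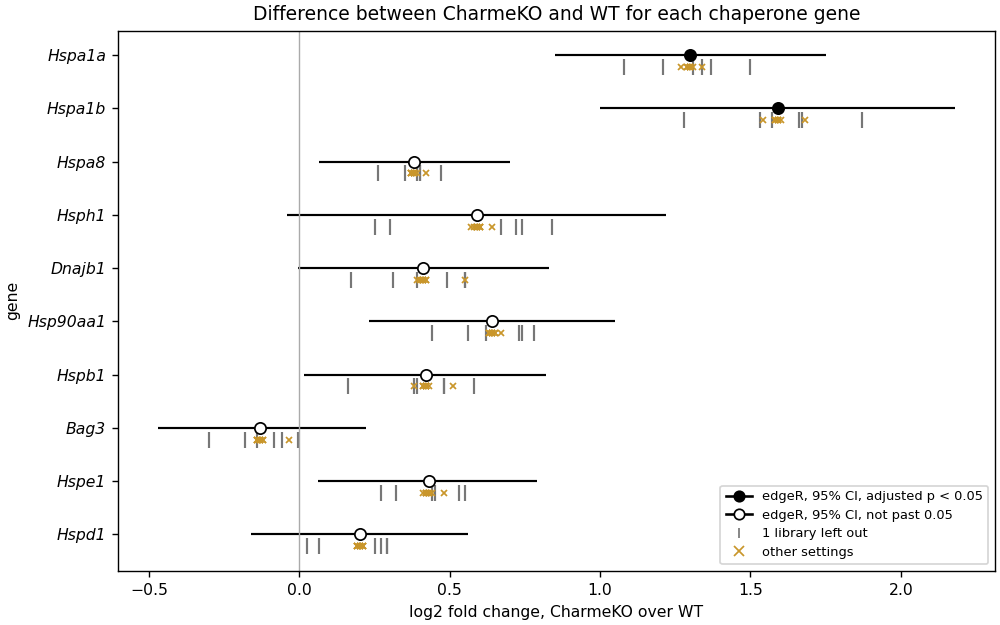
Log2 fold changes of the 10 genes, CharmeKO over WT, by edgeR (circles, filled where the adjusted p is under 0.05) with 95% confidence intervals as lines. Grey ticks are fits with 1 library left out and yellow crosses are other settings. The filled circles are *Hspa1a* at 1.30 and *Hspa1b* at 1.59, and *Bag3* at −0.13 is the only one below 0.

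Outside the 10 members, 7 lists of 94 other genes of chaperones and their regulators were read, of which 87 were tested. Only *Hspb7* passed the threshold. Of the 87 genes, 63 had a positive and 24 a negative log2 fold change, beside 51.2% of all tested genes with a positive one. The median of the 87 was 0.11, against 0.0096 over all tested genes. In the list of HSP70, HSP110 and exchange factors, 0 of 14 genes were called and the median log2 fold change was 0.079. *Bag6*, a partner of tail-anchored protein targeting, was at 308, 362 and 343 CPM in WT and 248, 257 and 310.5 CPM in CharmeKO (log2 fold change −0.31; edgeR, adjusted p = 0.353), and its groups overlapped, while *Bag5* had a log2 fold change of 0.23 (adjusted p = 0.544). The most abundant genes of this list per kb, *Bag1* and *Hspa12b*, had log2 fold changes of 0.10 and 0.12.

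Of 16 J protein genes 0 were called, with a median of 0.034. *Dnaja1*, a cytosolic J protein of HSC70, was at 284, 225 and 295 CPM in WT and 316, 333 and 391 CPM in CharmeKO. Its groups did not overlap, and its log2 fold change of 0.37 did not pass the threshold (edgeR, adjusted p = 0.308). *Dnajc8* stood at 0.27 (adjusted p = 0.312) and *Dnaja2* at 0.018 on the log2 scale. Of 16 genes of HSP90 and its co-chaperones 0 were called, with a median of 0.16. *Hsp90ab1*, the constitutive HSP90, was at 1459, 1215 and 1499 CPM in WT and 1465, 1649.9 and 1969 CPM in CharmeKO, with overlapping groups and a log2 fold change of 0.29 (edgeR, adjusted p = 0.466). The co-chaperones *Sugt1* and *Fkbp4* had log2 fold changes of 0.34 and 0.30 (adjusted p = 0.262 and 0.351).

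The cytosolic chaperonin and prefoldin list, whose proteins fold actin and tubulin, had 13 of 14 genes with a positive log2 fold change. Over all tested genes that share was 51.2%. The list had a median of 0.14 and 0 calls. Its lowest unadjusted p belonged to *Pfdn1*, at 13.7, 12.8 and 13.6 CPM in WT and 17, 22 and 18.8 CPM in CharmeKO, which lay apart (log2 fold change 0.53; edgeR, adjusted p = 0.165). *Vbp1*, *Pfdn5* and *Cct2* had log2 fold changes of 0.27, 0.23 and 0.013. The list of 16 mitochondrial chaperones and proteases, the setting of *Hspd1* and *Hspe1*, had 13 genes with a positive log2 fold change, a median of 0.18 and 0 calls. *Hspa9*, the mitochondrial HSP70, was between 90.0 and 106.4 CPM in WT and between 94.7 and 119 CPM in CharmeKO, a log2 fold change of 0.12 (edgeR, adjusted p = 0.763), and *Trap1* and *Clpb* stood at 0.21 and 0.23.

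No regulator of the heat shock response passed the threshold in mRNA. Of 9 genes of heat shock factors and their regulators 6 were tested, 0 were called and the median log2 fold change was −0.038. *Hsf1* was at 40.0, 53.7 and 48.9 CPM in WT and 47.5, 44.5 and 49.1 CPM in CharmeKO, with overlapping groups and a log2 fold change of −0.013 (edgeR, adjusted p = 0.979; named after its values were seen). *Hsf2* was at 9.62, 9.02 and 10.8 CPM in WT and 9.64, 7.16 and 5.03 CPM in CharmeKO (log2 fold change −0.42; edgeR, adjusted p = 0.487), with overlapping groups. *Ier5*, which promotes the activity of HSF1, and *Ier5l* had log2 fold changes of 0.097 and −0.18. HSF1 is controlled mainly as a protein, which these data do not measure.

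Because dissociation of tissue also induces heat shock genes, 2 further lists were read beside the members. The 23 immediate early genes, which the same procedure induces, had 0 calls, a median log2 fold change of −0.019 and a summed level of 40009 to 59281 CPM in WT and 43006 to 48975 CPM in CharmeKO. WT replicate 2, the library lowest in 8 of the 10 chaperone genes, was the highest in this sum. *Junb* and *Jund* were their most abundant genes per kb, with log2 fold changes of −0.019 and −0.34, and *Egr3* and *Nr4a3* had the lowest unadjusted p, with log2 fold changes of −0.33 and −0.42 (edgeR, adjusted p = 0.355 and 0.388). The 15 chaperone and stress genes of the endoplasmic reticulum had 0 calls and a median of 0.13, with *Hspa5* (BiP) at 0.14, *Calr* at 0.13, *Hsp90b1* at 0.36 and *Ddit3* at 0.23 on the log2 scale. The sum of this list was lowest in WT replicate 2 (2364 CPM) and highest in CharmeKO replicate 3 (3555 CPM), the same extremes as in the chaperone genes. The duration of dissociation of each heart was not recorded in the labels, and its part in the levels of *Hspa1a* and *Hspa1b* was not tested.

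**Figure D5:**
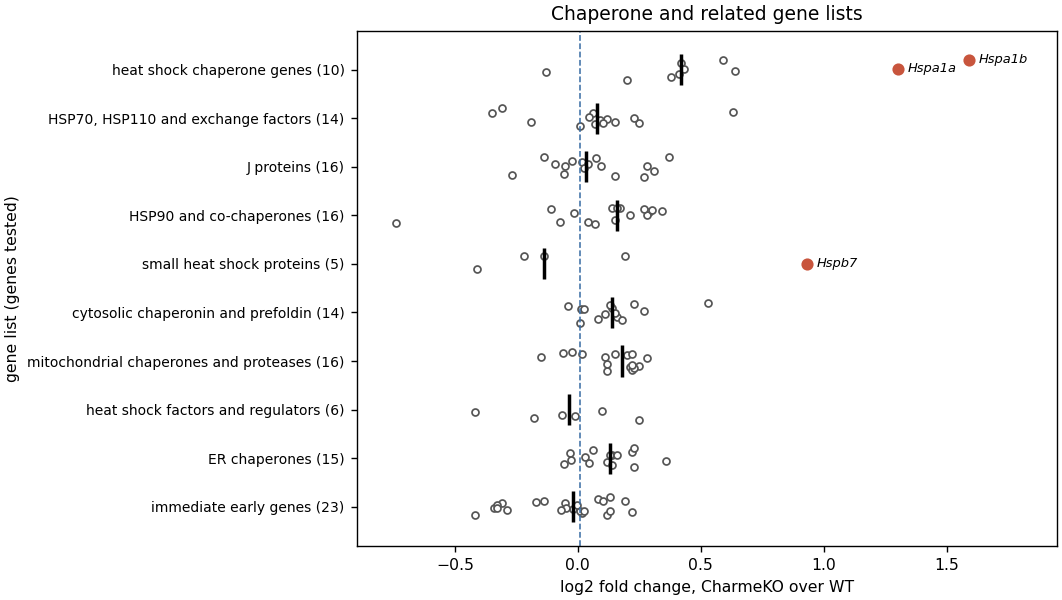
Log2 fold changes, CharmeKO over WT, of the tested genes of each list (points, filled and named where the edgeR adjusted p is under 0.05), with a black bar at each list's median and a dashed line at the median of all tested genes, 0.0096. The number tested is beside each list, and *Hspa1a*, *Hspa1b* and *Hspb7* are the named genes.

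*Hspb7*, a small heat shock protein of heart and skeletal muscle, was at 16.0, 14.6 and 18.8 CPM in WT and at 35.5, 29.7 and 28.6 CPM in CharmeKO. Its groups lay apart, with a log2 fold change of 0.93 and a standard error of 0.15 (edgeR, adjusted p = 0.011). The call was lost without WT replicate 1 (adjusted p = 0.0689) and without CharmeKO replicate 1 (adjusted p = 0.0894). Of the markers of cardiomyocytes, 8 of 8 had a positive log2 fold change, beside 51.2% of all tested genes. *Myh6* (0.85) and *Tnni3* (0.95) were called, beside 0.418% of tested genes called higher, whereas the groups of *Actc1* (0.054) and *Ttn* (1.04) overlapped. The sum of the 8 markers was 251 to 325 CPM in WT and 372 to 573 CPM in CharmeKO. That sum was highest in CharmeKO replicate 1 and lowest among CharmeKO in replicate 3, and so was *Hspb7*. *Hspa1a* and *Hspa1b* were lowest among CharmeKO in replicate 1 and highest in replicate 3. The part of cardiomyocyte RNA in the levels of *Hspb7* and of the HSP70 pair was not tested. The other tested small heat shock protein genes gave no call, and *Hspb8*, a partner of *Bag3*, was at 39.3, 40.1 and 43.1 CPM in WT and 27.8, 25.7 and 38.2 CPM in CharmeKO (log2 fold change −0.41; edgeR, adjusted p = 0.291). *Cryab* stood at −0.14 on the log2 scale, and 4 of the 9 genes of this list were not tested.

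The markers of the other cells of the stroma gave 1 call. In 3 of 7 endothelial markers, *Kdr*, *Emcn* and *Fabp4*, every CharmeKO library was above every WT library, at log2 fold changes of 0.38, 0.31 and 0.43 (edgeR, adjusted p = 0.298, 0.293 and 0.291). Such a separation held for 9.57% of all tested genes, and *Cdh5* and *Tie1* stood at −0.036 and −0.17. Groups also lay apart, higher in CharmeKO, for *Dcn* (0.29) and *Tagln* (0.27). Besides *Wt1* below, they lay apart and lower for *Cspg4* (−0.57), *Notch3* (−0.36), *Hba-a1* (−0.46), *Csf1r* (−0.78) and *C1qa* (−1.01). These were not set against the share of all tested genes that lay apart and lower. *Csf1r* and *C1qa* were at most 2.47 and 1.76 CPM in any library, and the groups of the other tested leukocyte markers overlapped. Of 7 fibroblast, 7 endothelial, 9 mural and 5 erythroid markers 0 were called, with the erythroid sum at 26774 to 39207 CPM in WT and 24411 to 31742 CPM in CharmeKO and the mural sum at 2312 to 2667 and 2334 to 2728 CPM. Of 7 leukocyte markers 6 were tested and 0 were called, at a summed 28 to 52.3 CPM in WT and 38.4 to 50 CPM in CharmeKO, with *Cd3e* not tested. Of 3 Schwann cell markers 2 were tested and 0 called, at a sum of 5.88 to 6.16 and 5.44 to 7.96 CPM. The 3 mesothelial or epicardial markers summed to 54.8 to 66.7 CPM in WT and 33.3 to 39.5 CPM in CharmeKO, and *Wt1* was called lower, with a log2 fold change of −0.66 (edgeR, adjusted p = 0.0189). The part of these cells in the level of the chaperone genes was not tested.

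Profiles across the 6 libraries were compared by the root mean square difference of log2 CPM after centring each gene. Nearest to the mean profile of *Hspa1a*, *Hspa1b*, *Hsph1* and *Dnajb1* stood *Gm20707* (0.117), *Bola1* (0.170), *H2bc27* (0.175), *Dnah2os* (0.182) and *Slco1a4* (0.192). All of these had low levels, with *Bola1* at 4.54, 3.16 and 3.98 CPM in WT and 7.54, 7.81 and 7.93 CPM in CharmeKO, and none passed the threshold. Nearest to *Hspd1* stood *Trnt1* (0.0515), *Ran* (0.0690), *Rexo2* (0.0807), *Fbl* (0.0808) and *Mrpl13* (0.0810). *Ran*, the GTPase of nuclear transport, was at 94.9, 57.1 and 86.9 CPM in WT and 81.6, 75.9 and 98.8 CPM in CharmeKO, so that it shared with *Hspd1* the low value of WT replicate 2.

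The elements in the promoters were last set beside the calls, as a description. The strict element stood in *Hspe1*, *Hspd1* and *Hsph1*, of which 0 of 3 passed the threshold, beside 0.830% of all tested genes called in either direction. *Hspe1* and *Hspd1* share the DNA of their strict matches. The called pair held the loose form alone. In the other lists, the strict form stood in *Dnajb6* and *Chordc1*, and neither of these was called. With so few genes and so small a share called, these counts cannot tell whether an element goes with a call.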

How the data were processed

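Poly(A)-selected directional libraries of 3 WT and 3 CharmeKO samples of native CFs were analysed. The authors aligned Q30-filtered reads with STAR, counted reads on genes of an edited Ensembl annotation on the reverse strand, and deposited raw counts without normalization or filter. The assembly and annotation release named do not match, so no coordinates of counted genes are given. The filter of 10 counts or more in 2 or more libraries left 15789 genes, which were normalized by TMM and tested by quasi-likelihood in edgeR 4.0.16 (R 4.3.3), with Benjamini-Hochberg adjustment at 0.05, and DESeq2 1.42.0 was an alternative. Standard errors were derived from the F statistics. In data simulated for CharmeKO against WT, with 198 of 15310 genes changed by 1.5 on the log2 scale, edgeR recovered 163 and called 11 others. Count ratios were compared with exact permutation tests over libraries. P-values measure the spread between libraries, each taken from the labels as 1 replicate, and no library duplicated another. Promoters were RefSeq windows, and shared windows came from GENCODE M21 transcripts on GRCm38.

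Named genes were the 10 members and, from each list, every gene past the threshold, the 2 most abundant per kb and the 2 with the lowest unadjusted p, and the 5 nearest profiles. *Hspb7* counted under several parts. Members and lists were chosen with earlier results of these data known. Alternatives were DESeq2, its size factors, upper-quartile factors, 3 other filters, the replicate block, each library left out, hemoglobin genes left out, the pair added up and, added after seeing the data, a term for the split by *Xist*. Confidence intervals of log2 fold changes come from the same fit and cover the spread between libraries, whereas the limits for counts of 0 cover counting error only.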

Additional observations from a re-analysis of the deposited data

How the results depend on the processing

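Directions held: the log2 fold changes of the 10 genes kept their sign under all alternatives run, and those of the pair kept the call under every scaling and filter. The number of genes called over the whole table moved most, from 131 of 15789 tested to 394 of 15789 by DESeq2. It was 699 of 24579 with a filter of 1 count in any library. With that filter 4 members were called, the pair, *Hsph1* (log2 fold change 0.60; edgeR, adjusted p = 0.000877) and *Hsp90aa1* (0.65, adjusted p = 0.000724). So were 2 other chaperone genes, *Hspb7* and *Fkbp5*, the latter named after its values were seen. In the main fit *Fkbp5* was lower in CharmeKO, with a log2 fold change of −0.74 (edgeR, adjusted p = 0.419). By DESeq2 *Hsp90aa1* was called at 0.63. With each library left out, between 61 and 349 genes were called, of between 15239 and 15769 tested. Among them were between 0 and 2 members and between 0 and 1 other chaperone genes. The log2 fold changes were 1.08 to 1.5 for *Hspa1a* and 1.28 to 1.87 for *Hspa1b*. The cause of these shifts was not tested. With the replicate number as a replicate block, 302 of 15789 genes were called, among them the pair and *Hsp90aa1* (0.67; edgeR, adjusted p = 0.0245). Same-numbered libraries deviated together with correlations of 0.11, 0.013 and 0.070, so the numbers were not taken as pairs. Depth was lowest in WT replicate 3. With 3 libraries in each group, an exact permutation test of a single value cannot go below p = 0.1.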
